A study of Chlamydomonas reinhardtii with 45 samples.

Results

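The genes analysed here encode the proteases of the *Chlamydomonas reinhardtii* chloroplast and the factors that keep photosystem II (PSII) in repair. They were taken from the gene table by symbol (FTSH, FHL, DEG, CLP, REP27, TEF30, TSP or EGY) or by a description that names FtsH, Deg protease or Clp protease. The rule found 50 of 17609 genes, all of them by symbol and 24 of them also by description. The letters TSP also caught 4 enzymes of trehalose metabolism (*TSPP1*, *TSPS1*, *TSPSP1*, *TSPSP2*), and their removal leaves 46 members that are proteases, repair factors or their relatives. No row carries the symbol REP27. *CLPP2* is annotated as the peptidase of a mitochondrial ClpXP protease, and the descriptions of many other members give no compartment, so the group is not strictly one of the chloroplast.

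mRNA was measured in cells of strain CC-5390, made from the cell wall-deficient CC-4351 of mating type plus by complementation with *ARG7* on the cosmid pCB412. All populations were grown photoautotrophically in photobioreactors with 12 h of light at 28 °C and 12 h of darkness at 18 °C, and were acclimated to 50 (LL), 200 (ML) or 1000 (HL) µmol photons of blue and red light per square meter and second. Samples were taken 2 h before dawn (−2), 2, 6 and 10 h after dawn (+2, +6, +10), and 2 h after dusk (−10), with 3 experimental replicates for each of the 15 combinations, 45 libraries in all. Replicates of a population were independent cultures grown in different weeks, each followed through an experiment. Timepoints of one replicate can thus be repeated samples of the same culture, which the main model treated as independent. All cultures are of a single strain, and each library holds the RNA of a whole culture, in which cells can be at different stages of the cell cycle.

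Light damages PSII whenever it works, and the damaged D1 protein of its reaction center is removed and replaced in a repair cycle. In the thylakoid membrane D1 is degraded by FtsH, a hexameric ATP-dependent metalloprotease that in *Chlamydomonas* is built from FTSH1 and FTSH2, with help from Deg proteases, ATP-independent serine proteases that cut exposed loops. TEF30 binds to PSII on the stromal side and assists the return of repaired PSII into supercomplexes. In the stroma the Clp protease degrades soluble proteins: a barrel of ClpP (active) and ClpR (inactive) subunits receives substrates from the HSP100 chaperone ClpC, with ClpS as an adaptor. ClpB proteins are related HSP100 chaperones that dissolve aggregates and degrade nothing, and FtsH-like import ATPases pull proteins into the chloroplast.

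Abundance is given as FPKM, fragments scaled to transcript length and to the mapped fragments of the library, so levels can be compared between genes per unit of length. Differences are log2 differences of FPKM + 1 from a limma model over all 45 libraries, given with their standard error (SE). An mRNA was counted as increased or decreased when its log2 difference was above 1 or below −1 with an adjusted p (Benjamini-Hochberg) under 0.01, and a second, looser count used the adjusted p alone. Tests were run on mRNAs with 3 or more libraries at 1 FPKM or above, which left 49 of the 50 members. *DEG2*, with a mean of 0.554 FPKM, was left out, and *CLPB2* passed through only 8 libraries, none of them of the LL population. An FPKM of at least 1 in every library was found for 37 members. The relative depth of a library, read from the spacing of its lowest FPKM values, was 0.168 of that of ML replicate 1 at −2 for LL replicate 1 at −2, and 0.582 to 1.36 of it for the others, so LL values at −2 are given with and without that library where they matter. The light labels were checked with *LHCSR1*, a photoprotective antenna protein of excess light, whose log2 difference at +6 was −2.59 between LL and ML (SE 0.296, adjusted p 2.30e-08) and 2.77 between HL and LL (SE 0.296, adjusted p 5.12e-09). Its HL and ML libraries at +6 overlapped (174.9 to 228.4 and 148.4 to 216.7 FPKM). The related *LHCSR3A* at +6 had means of 12.25 FPKM in LL, 189 in ML and 377.9 in HL. Not every light marker had this order. At +2 the mean of the early light-induced *ELIP3* was 206.9 FPKM in LL, 155.4 in ML and 167.5 in HL. That of *LHCSR3A* was 116.8, 90.08 and 305.1.

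Most of these mRNAs followed the day. In each population 38 of the 49 tested members differed between timepoints (F test, with a range of group means above 1 on the log2 scale), or 77.6%, against 66.4% of all tested genes in the LL population, 78.7% in ML and 73.5% in HL, so their share is close to that of all genes. The early morning was the commonest peak: 29 members had their highest mean at +2 in LL, 29 in ML and 30 in HL (59.2%, 59.2% and 61.2% of the 49). Among all tested genes 26.1%, 25.4% and 24.5% had their highest mean there. The highest timepoint was the same in all 3 populations for 41 of 49 members, or 83.7%, against 61.0% of all tested genes. It differed for *CLPB3*, *CLPD1*, *DEG1B*, *DEG1C*, *DEG6*, *DEG9*, *FTSH2* and *FTSH4*.

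From −2 to +2, across dawn, 23 members increased and 5 decreased in LL, 24 increased and 5 decreased in ML, and 22 increased and 6 decreased in HL. Among all tested genes, 17.5% increased and 14.7% decreased in LL, 20.2% and 18.7% in ML, and 19.7% and 15.3% in HL. The median log2 difference of the members was 0.93 in LL, 0.92 in ML and 0.93 in HL, against 0.04, 0.01 and 0.00 over all tested genes. With quantile normalization 13 members increased and 6 decreased in HL. Without LL replicate 1 at −2 the LL counts were 22 and 6. The shares of all genes given above are those of the main setting and are not matched to these counts. The largest increase in ML was that of *CLPS2*, at 4.72 (SE 0.326, adjusted p 2.97e-15), and the largest decrease that of *CLPD1*, at −4.05 (SE 0.134, adjusted p 3.21e-24).

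**Figure D1:**
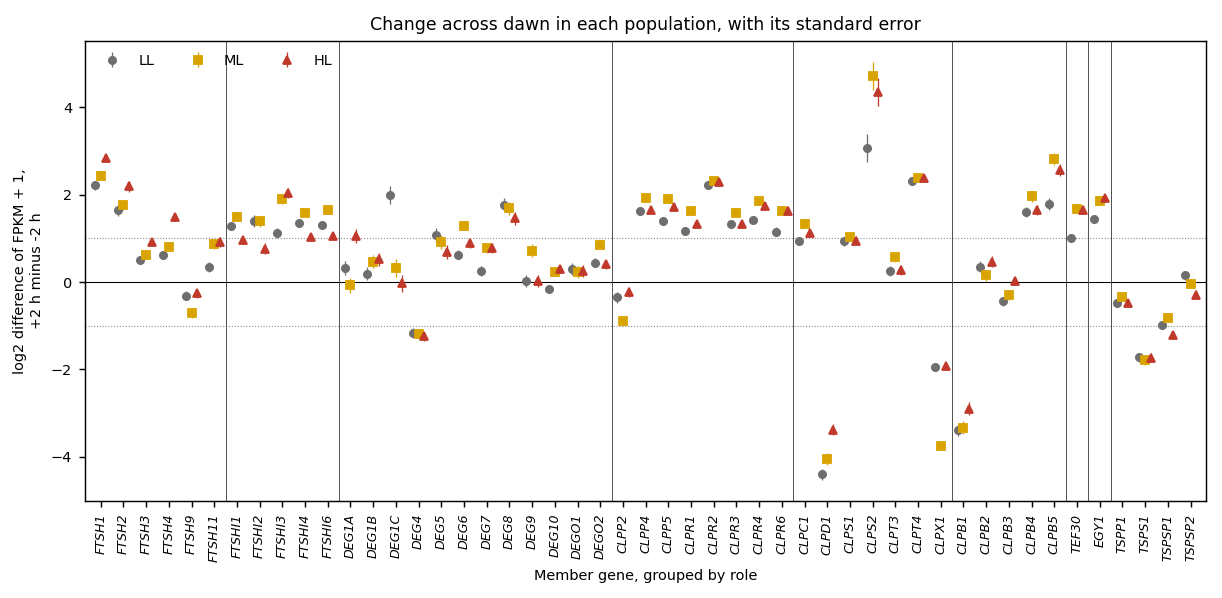
Change across dawn for the 49 tested members, as the log2 difference of FPKM + 1 between +2 and −2 (vertical axis), grouped by role along the horizontal axis. Symbols are the LL, ML and HL populations with the standard error of the fit, and dotted lines mark a log2 difference of 1 in either direction. Chloroplast Clp core and import ATPase genes lie above 0 in every population, while *CLPD1*, *CLPB1* and *CLPX1* lie furthest below it.

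Few tests of a member between light intensities passed both thresholds, at shares near those of all genes. Over the 5 timepoints, which give 245 tests of a member, 3 were increases and 0 were decreases in HL relative to ML (1.22% and 0% of the tests, against 2.03% and 0.622% over all genes). In LL relative to ML there were 5 increases and 5 decreases, or 2.04% each, against 2.86% and 1.97% over all genes. In HL relative to LL there were 6 increases and 4 decreases (2.45% and 1.63%), against 2.06% and 1.99%. LL and HL were compared with the same ML libraries, so these comparisons are not independent. They belong to *DEG1A*, *DEG1C*, *DEG9*, *CLPX1*, *CLPS2*, *CLPD1*, *CLPB5*, *FTSHI3*, *FTSH2* and *TEF30*.

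**Figure D2:**
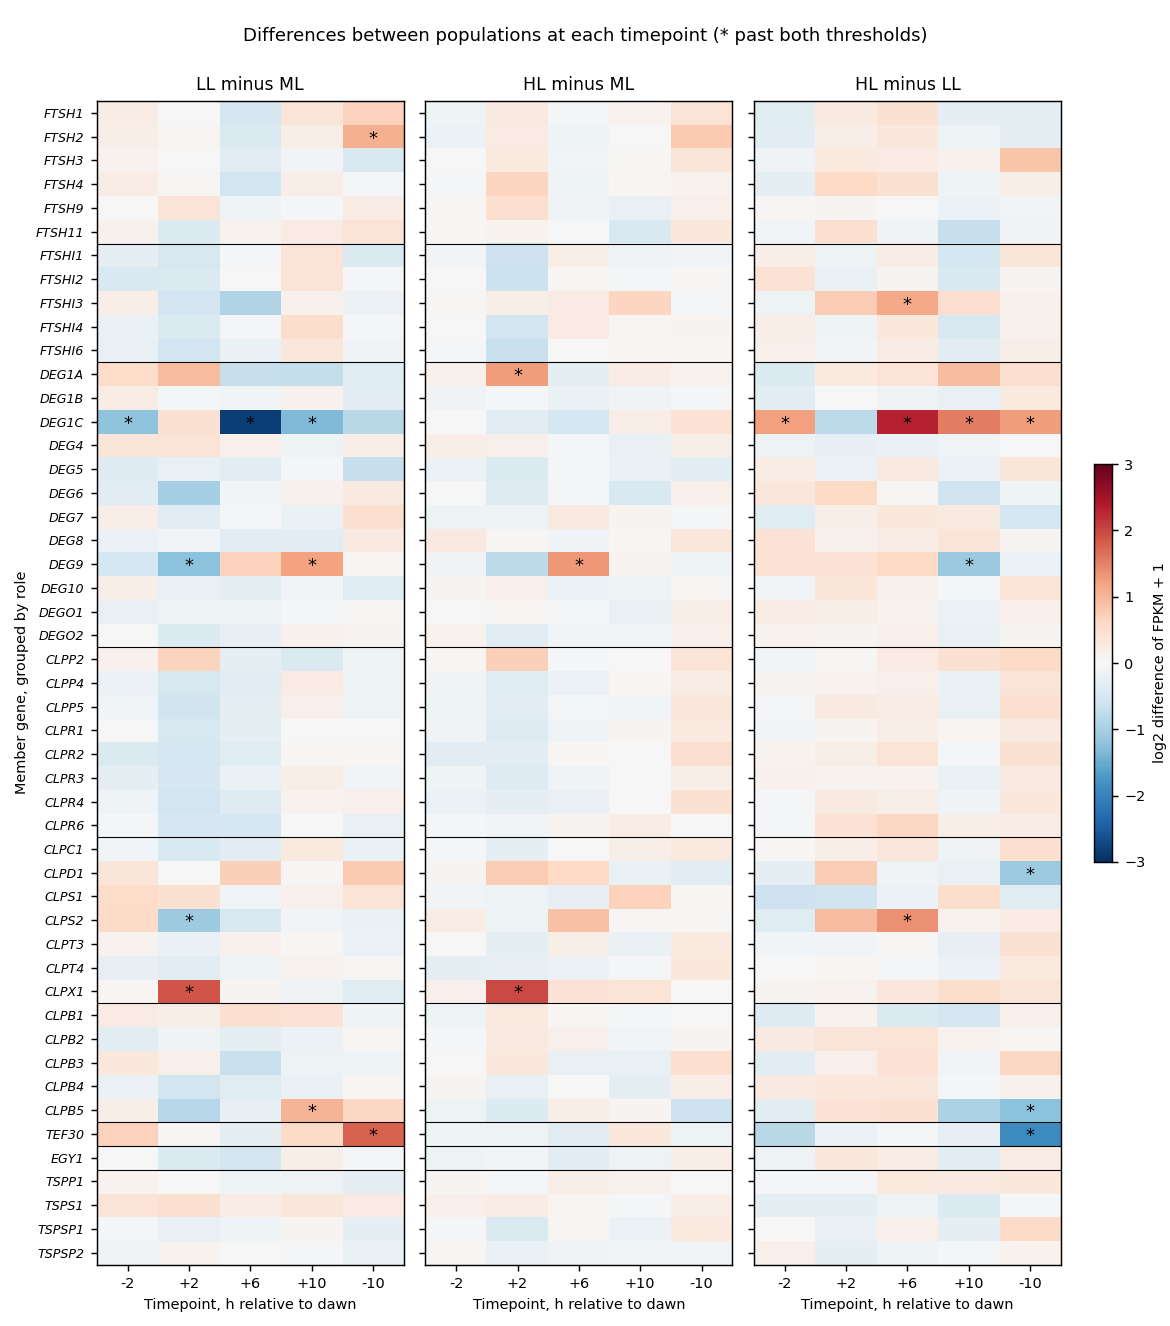
Log2 difference of FPKM + 1 between populations for the 49 tested members (rows, grouped by role) at each timepoint (columns), for LL minus ML, HL minus ML and HL minus LL. Red is higher and blue lower in the population named before the word minus, and an asterisk marks a difference past both thresholds. *DEG1C* is the darkest row in the LL minus ML panel, where it reaches −2.83 at +6.

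Smaller differences were frequent at some timepoints. In HL relative to ML at +2, by the adjusted p alone, 7 members were higher and 16 lower, 14.3% and 32.7% of the 49, against 16.8% and 12.5% of all genes. In LL relative to ML at +2, 7 were higher and 22 lower (14.3% and 44.9%), against 16.6% and 15.1% of all genes. The median log2 difference of the members at +2 was −0.15 in HL and −0.23 in LL, relative to ML, against 0.04 and 0.03 over all genes. At +6 the numbers were 3 higher and 1 lower in HL (all genes 8.46% and 4.99%), and 3 higher and 16 lower in LL (all genes 11.0% and 9.85%). At +10 they were 4 higher and 2 lower in HL (all genes 11.7% and 10.5%), and 11 higher and 3 lower in LL (all genes 14.7% and 16.2%). After dusk, at −10, 10 were higher and 1 lower in HL (all genes 5.07% and 1.84%), and 8 were higher and 8 lower in LL (all genes 13.1% and 9.42%). The counts at −10 depended on ML replicate 3: without it, a choice made after seeing the data, 5 were higher and 1 lower in HL, and 6 were higher and 7 lower in LL. The shares of all genes at −10 are those with all libraries. At −2, at the end of the night, 0 members were higher and 0 lower in HL (all genes 0.541% and 0.651%), and 3 were higher and 3 lower in LL (all genes 6.99% and 5.15%).

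HL and LL were also compared directly. At +6, 13 members were higher in HL and 0 lower (all genes 8.61% and 6.01%), and the median log2 difference was 0.22, against 0.04 over all genes. At +2 there were 11 higher and 2 lower (all genes 14.3% and 10.5%). At −10 there were 17 higher and 5 lower (all genes 11.8% and 11.0%), and at +10 there were 7 higher and 12 lower (all genes 19.0% and 15.9%). At −2 there were 1 higher and 3 lower (all genes 3.09% and 5.53%). The share of members higher in HL than in LL, 22.4% at +2, 26.5% at +6 and 34.7% at −10, was above that of all genes at each of these times, and at +10 the share that was lower, 24.5%, was above it.

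The thylakoid FtsH genes were among the most abundant of the group. *FTSH2* had the highest mean of the FtsH proteases, 154 FPKM over all libraries, and *FTSH9* the lowest, 1.85 FPKM. In ML, *FTSH1* stood at 50.0, 48.4 and 47.5 FPKM at −2. It reached 272, 273 and 258 FPKM at +2, stood at 252, 256 and 265 at +6, fell back to 53.4, 53.2 and 55.1 at +10 and was at 21.4, 18.8 and 14.02 after dusk. It thus held a plateau from morning to midday and was lowest after dusk. The increase across dawn was 2.44 in ML (SE 0.0954, adjusted p 3.61e-22), 2.21 in LL and 2.84 in HL.

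Sequence identity within the families was not examined, so reads shared between close relatives may affect their values. *FTSH2* had nearly the same course as *FTSH1*. In ML its libraries were at 84.6, 75.9 and 90.7 FPKM before dawn. They reached 286, 275 and 296 FPKM in the morning (+2) and 279, 306 and 335 FPKM at +6. They were back at 79.9, 78.1 and 86.3 FPKM by +10 and fell to 17.7, 15.4 and 8.93 FPKM after dusk. Over all 45 libraries the correlation of *FTSH1* with *FTSH2* on log2(FPKM + 1) was 0.973, a description only, since the libraries share their time of day and light. The ratio of *FTSH1* to *FTSH2* FPKM was not constant: in ML it was 0.584 ± 0.0578 (SD, n = 3) at −2, 0.938 ± 0.0627 at +2 and 1.33 ± 0.206 at −10. At −2 it was 0.611 ± 0.0744 in LL and 0.598 ± 0.0140 in HL, and in each population it was lowest at −2 and highest at −10.

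Light intensity moved the pair most after the peak. At +6 the *FTSH1* libraries of LL were at 183, 182 and 180 FPKM, below all those of ML and of HL (248, 254 and 252), and the log2 difference from ML was −0.50 (SE 0.0954, adjusted p 9.84e-05). *FTSH2* at +6 was lower in LL by the adjusted p alone (−0.44, SE 0.124, adjusted p 0.00641). After dusk the order was turned: at −10 *FTSH2* was at 31.5, 26.7 and 29.5 FPKM in LL, above all 3 ML libraries, an increase of 1.06 (SE 0.124, adjusted p 2.39e-08). Without ML replicate 3 at −10, the lowest of the ML libraries, it was 0.78 (adjusted p 3.21e-08), under the fold threshold. At −10 *FTSH2* was also higher in HL (27.0, 25.2 and 19.8 FPKM) than in ML by the adjusted p alone, with 0.78 (SE 0.124, adjusted p 2.60e-05), or 0.50 (SE 0.0908, adjusted p 0.000233) without ML replicate 3. *FTSH1* at −10 was at 33.4, 28.3 and 26.9 FPKM in LL and 24.8, 24.1 and 22.5 in HL, with log2 differences from ML of 0.69 (adjusted p 5.09e-07) and 0.40 (adjusted p 0.00370). Without ML replicate 3 they were 0.53 (adjusted p 1.40e-05) in LL and 0.24 (SE 0.0867, adjusted p 0.106) in HL, so that *FTSH1* in HL no longer passed. In that ML library the mitotic cyclin *CYCB1* was at 159 FPKM, against 57.2 and 46.6 in the other two, and its part in these differences was not tested.

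At +2 the means of *FTSH1* and *FTSH2* were highest in HL, 322 ± 3.94 and 341 ± 7.79 FPKM (SD, n = 3), against 268 ± 8.69 and 286 ± 10.5 in ML, but neither difference passed the adjusted p. By the adjusted p, 3 FtsH proteases were higher in HL than in ML at +2. The largest of these differences was that of *FTSH4*, a member of the family with no stated compartment. Its libraries at +2 were at 92.4, 87.7 and 87.9 FPKM in HL, at 63.0, 54.6 and 52.5 in ML and at 62.3, 59.4 and 53.9 in LL. The HL libraries lay above all others, by 0.65 on the log2 scale relative to ML (SE 0.0857, adjusted p 1.51e-07) and by 0.60 relative to LL (adjusted p 7.35e-07). *FTSH4* peaked at +2 in HL and at +6 in ML and LL. *FTSH3* and *FTSH9* were higher in HL than in ML at +2 as well (0.28 and 0.49), but *FTSH9* was of low abundance, with a mean of 1.04 FPKM in ML at +2. *FTSH3* at −10 was lowest in LL (8.30, 7.63 and 7.61 FPKM) and highest in HL (14.96, 15.6 and 13.4), 0.82 apart (SE 0.0750, adjusted p 9.79e-11), the reverse of the order of *FTSH2* in LL and ML.

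*TEF30* had the largest light differences of any tested member at −10. It was abundant, 194 FPKM on average, and in ML rose from 153, 143 and 169 FPKM at −2 to 505, 499 and 483 at +2, an increase of 1.67 (SE 0.0975, adjusted p 2.46e-17), before it fell to 22.3, 18.0 and 17.6 FPKM at −10. In LL the −10 libraries were at 65.7, 67.7 and 69.3 FPKM, far above the ML libraries and those of HL (17.1, 19.4 and 15.4). The increase over ML was 1.76 (SE 0.0975, adjusted p 3.46e-16), a ratio of means of 3.50, and HL was lower than LL by −1.91 (SE 0.0975, adjusted p 4.14e-17). In bulk RNA, a higher level in every cell and a larger share of cells that hold the mRNA cannot be told apart.

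Before dusk, at +10, *TEF30* was already higher than in ML by the adjusted p alone, by 0.57 in LL and by 0.33 in HL. The higher *TEF30* level of LL lasted through the night. At −2 the LL libraries were at 303, 244 and 216 FPKM, above all those of ML and of HL (144, 136 and 144), with 0.70 relative to ML (SE 0.0975, adjusted p 2.02e-06). The highest of them is the library of low depth, without which the difference was 0.57 (SE 0.0970, adjusted p 8.96e-05). By +2 the populations were close, with means of 510 ± 29.3 in LL, 496 ± 11.2 in ML and 449 ± 6.63 in HL (SD, n = 3), and neither LL nor HL differed from ML by the adjusted p. The change across dawn was therefore smaller in LL (1.01) than in ML, by −0.66 (interaction, SE 0.138, adjusted p 0.000382). Division markers at −10 did not move together. *POLA4*, a primase subunit, was higher in LL than in ML by 1.55 (SE 0.221, adjusted p 9.70e-07). *RIR1*, a ribonucleotide reductase subunit, was higher by 0.93 (adjusted p 0.00280). *CDKB1*, a cell cycle kinase (0.61, adjusted p 0.126), and the mitotic cyclin *CYCB1* (−0.26, adjusted p 0.621) did not pass the adjusted p. The summed FPKM of these 4 markers was 80.52 to 164.2 in LL and 64.22 to 199.3 in ML. The part of cell cycle timing in the *TEF30* difference was not tested.

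*EGY1*, which in *Arabidopsis* is a membrane metalloprotease needed for chloroplast development, had 30.8 FPKM on average and peaked at +2 in every population. The +2 libraries were at 66.8, 66.4 and 68.1 FPKM in ML, 64.2, 63.1 and 62.4 in HL, and 53.0, 48.9 and 49.9 in LL. LL was lower than ML at +2 (−0.40, SE 0.0779, adjusted p 7.11e-05) and at +6 (−0.55, adjusted p 1.33e-06), as the *FTSH1* mRNA was at +6.

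**Figure D3:**
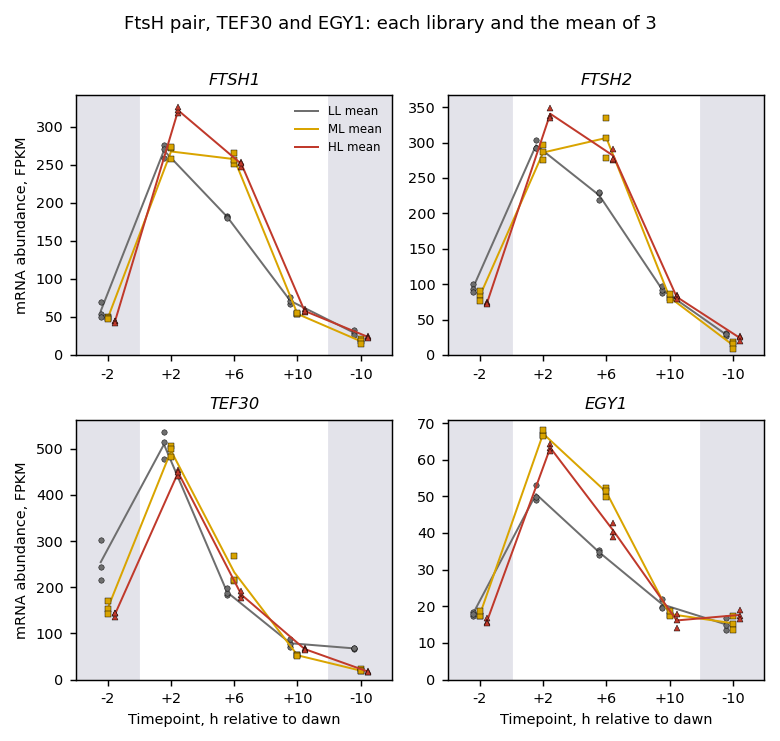
FPKM of *FTSH1*, *FTSH2*, *TEF30* and *EGY1* (vertical axes) in every library by timepoint in hours relative to dawn. The −10 timepoint, 2 h after dusk, is drawn after +10, and grey areas are darkness. Points are single libraries, lines join the means of 3, and colors stand for LL (grey), ML (yellow) and HL (red). *TEF30* in LL stays above the other populations at −10 and −2.

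The Deg genes were less abundant than the FtsH pair and less alike. *DEG10* had the highest mean of the family, 16.5 FPKM, and *DEG2* the lowest. Across dawn in ML, 2 of the 12 tested members increased, *DEG6* (1.29) and *DEG8* (1.69), and 1 decreased, *DEG4* (−1.19). In *Arabidopsis*, Deg1 and the complex of Deg5 and Deg8 act in the thylakoid lumen and assist D1 breakdown.

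*DEG1C* was the member that differed most between light intensities. At +6 its libraries were at 29.2, 34.1 and 18.0 FPKM in ML, at 15.9, 19.2 and 18.7 in HL and at 2.34, 2.55 and 3.76 in LL. LL lay below all the others, by −2.83 relative to ML (SE 0.203, adjusted p 9.04e-13; the ML mean was 9.41 times that of LL), and HL was above LL by 2.30 (SE 0.203, adjusted p 7.32e-11). At +10 the libraries were at 5.26, 6.18 and 6.72 FPKM in ML, 8.09, 7.29 and 6.07 in HL, and 2.20, 1.52 and 1.75 in LL, again with LL below all others. The decrease in LL at +10 was −1.32 (SE 0.203, adjusted p 2.78e-06), and HL was above LL by 1.53 (SE 0.203, adjusted p 2.00e-07).

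The low *DEG1C* level of LL continued into the night. At −10 it was 0.994, 1.03 and 0.543 FPKM in LL, 2.23, 2.92 and 1.81 in ML and 4.46, 3.90 and 2.23 in HL, and HL was above LL by 1.26 (SE 0.203, adjusted p 6.98e-06). At −2 it was 1.47, 2.44 and 2.30 FPKM in LL, 6.27, 5.52 and 6.20 in ML, and 7.54, 6.96 and 4.25 in HL. The decrease relative to ML was −1.20 (SE 0.203, adjusted p 4.05e-05), or −1.05 (adjusted p 0.00116) without the LL library of low depth, and HL was above LL by 1.22, or 1.07 without that library. HL did not differ from ML in *DEG1C* by the adjusted p at any timepoint.

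At +2 alone *DEG1C* was not low in LL. The LL libraries were at 12.8, 9.56 and 10.9 FPKM, above all those of ML (8.53, 8.23 and 6.62) and of HL (7.26, 5.48 and 5.26), and the difference between HL and LL passed the adjusted p (−0.79, SE 0.203, adjusted p 0.00225) while that between LL and ML did not. The highest *DEG1C* mean of LL was therefore at +2, 11.1 ± 1.65 FPKM (SD, n = 3), and that of ML and HL at +6. The cell cycle marker *CDKB1* was higher in LL than in ML at +6 by 1.99 (SE 0.305, adjusted p 4.22e-06) and lower at −2 by −2.57 (adjusted p 9.79e-08), and at +10 *RIR1*, a ribonucleotide reductase subunit, and *POLA4* were lower in LL than in ML by −1.09 (SE 0.242, adjusted p 0.000446) and −0.98 (SE 0.221, adjusted p 0.000513). Not all markers moved with *CDKB1*: in LL and ML the means of *CYCB1* at +6 were 1.99 and 1.40 FPKM, and those of *POLA4* at −2 were 8.63 and 8.81. The summed FPKM of *CDKB1*, *CYCB1*, *RIR1* and *POLA4* at +10 was 431.8 to 684.1 in LL, 867.0 to 1047 in ML and 987.8 to 1049 in HL, with none of the 4 at 0. At +6 the sum was 73.93 to 105.6 in LL, 30.22 to 46.96 in ML and 69.85 to 76.04 in HL. At −2 it was 18.07 to 26.23 in LL and 32.88 to 97.6 in ML, where replicate 2 was the highest. The part of cell cycle timing in the *DEG1C* differences was not tested.

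*DEG1A* peaked at +6 in every population, at 34.2, 34.2 and 29.6 FPKM in ML, 26.1, 29.2 and 25.2 in HL and 20.4, 19.0 and 20.5 in LL. At +2 its libraries were at 15.5, 16.4 and 12.1 FPKM in HL, 13.1, 9.83 and 12.1 in LL and only 5.92, 5.85 and 4.88 in ML. HL was above ML at +2 by 1.25 (SE 0.164, adjusted p 1.46e-07), and LL was above ML by 0.95 (SE 0.164, adjusted p 1.35e-05), just under the fold threshold. At +10 LL was lower than ML by −0.71 (adjusted p 0.000735). *DEG1B* stayed between 4.11 and 9.32 FPKM in its group means, and neither LL nor HL differed from ML by the adjusted p at any timepoint.

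*DEG5* and *DEG8* did not share one course. The mean of *DEG8* in ML went from 3.21 FPKM at −2 to 12.3 at +2 and 1.22 at −10, whereas that of *DEG5* was 6.99 at +2 and still 6.32 at −10. Their correlation over the 45 libraries was 0.368. *DEG5* at −10 was lower in LL (3.599, 3.62 and 3.17 FPKM) than in ML (6.45, 7.53 and 4.98), by −0.70 (SE 0.163, adjusted p 0.000959). *DEG8* did not differ between LL or HL and ML by the adjusted p.

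*DEG9* had a night and morning course, with low values in the afternoon. In ML it was at 32.1, 30.5 and 32.6 FPKM at +2, and in both other populations it was lower: 12.0, 14.1 and 12.8 in LL and 17.0, 17.3 and 19.6 in HL. The difference from ML was −1.23 in LL (SE 0.139, adjusted p 4.98e-09) and −0.79 in HL (SE 0.139, adjusted p 1.92e-05). At +6 ML was the lowest of the populations, with 9.82, 9.25 and 9.67 FPKM in HL, 6.18, 6.44 and 5.45 in LL and 3.67, 3.90 and 2.53 in ML, an increase of 1.29 in HL (SE 0.139, adjusted p 1.67e-08). The summed division markers were also lowest in ML at +6, as given for *DEG1C*, and their part in this increase was not tested. At +10 *DEG9* was at 6.60, 8.75 and 7.83 FPKM in LL, above ML by 1.20 (SE 0.139, adjusted p 1.45e-08) and above HL, which was lower by −1.12 (SE 0.139, adjusted p 4.94e-08). The division markers were lower in LL at that time, as given for *DEG1C*, and their part in the *DEG9* difference was not tested.

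**Figure D4:**
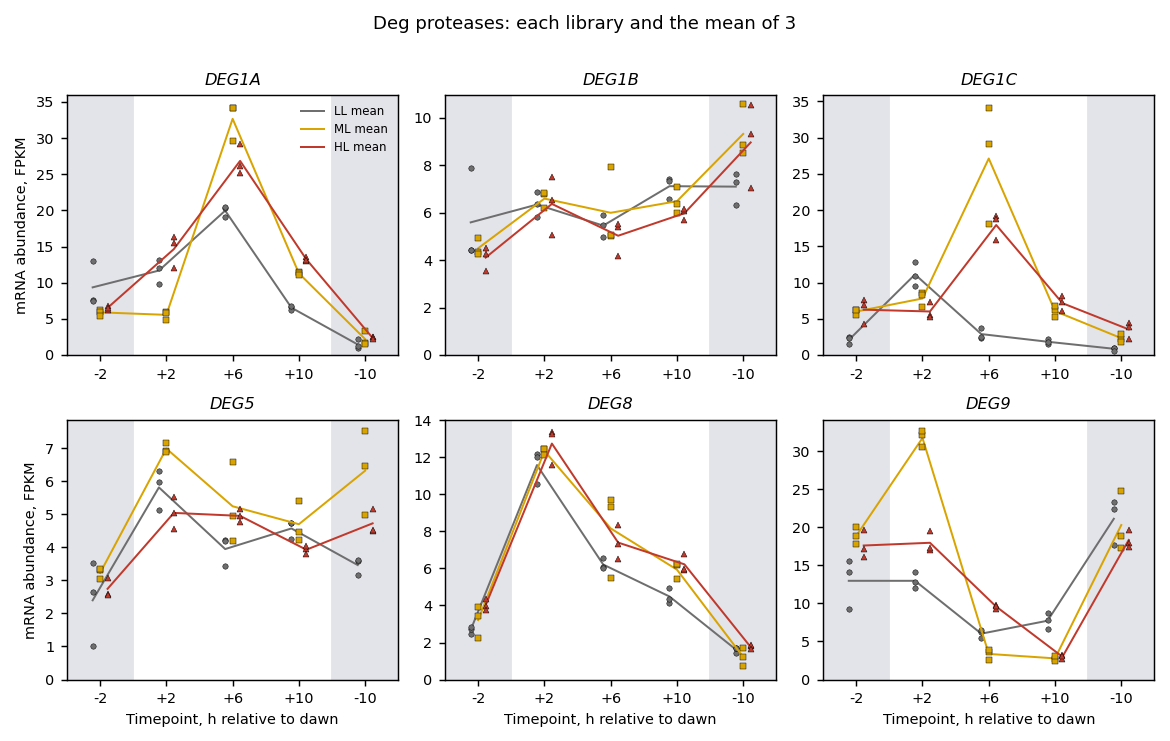
FPKM of 6 Deg protease genes (vertical axes) in every library by timepoint in hours relative to dawn, drawn as for the FtsH genes with −10 after +10 and darkness in grey. Points are single libraries and lines join the means of 3. *DEG1C* in LL stays low at +6, where ML has a mean of 27.1 FPKM and LL one of 2.88.

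The chloroplast Clp core genes (*CLPP4*, *CLPP5*, *CLPR1*, *CLPR2*, *CLPR3*, *CLPR4*, *CLPR6*) moved as a block. All 7 increased across dawn in every population, by 1.15 to 2.31 on the log2 scale, and all 7 had their highest mean at +2. Their correlations with each other over the 45 libraries were 0.894 to 0.988 in 21 pairs, again as a description of libraries that share time and light. *CLPP4*, an active subunit and the most abundant of them at 118 FPKM on average, was at 80.0, 75.8 and 72.5 FPKM at −2 and at 292, 295 and 281 at +2 in ML. The mean of the 7 at +2 was 171 ± 2.39 FPKM in ML, 137 ± 3.201 in HL and 119 ± 2.62 in LL (SD, n = 3), with no overlap between populations.

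All 7 core mRNAs were lower in LL than in ML at +2 by the adjusted p, by −0.60 to −0.47, and 6 were lower in HL, the exception being *CLPR6* (−0.07). At −10 the mean of the 7 was 56.6 ± 2.29 FPKM in HL, 46.8 ± 3.56 in ML and 44.2 ± 3.76 in LL. *CLPC1*, the stromal chaperone that feeds the Clp barrel, was the most abundant of the Clp partners, 225 FPKM on average, and had the directions of the core at +2. It was at 537, 529 and 514 FPKM in ML, 431, 438 and 441 in HL and 386, 378 and 383 in LL, with differences from ML of −0.27 in HL (adjusted p 0.000966) and −0.46 in LL (SE 0.0649, adjusted p 4.02e-07). At −10 *CLPC1* was higher in HL than in LL by 0.48 (adjusted p 3.19e-07).

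The mitochondrial peptidase *CLPP2* followed another course. Its ML libraries were at 6.40, 4.93 and 5.53 FPKM at +2, the low point, and at 30.8, 29.6 and 28.2 at +6. Its correlations with the chloroplast core were −0.295 to −0.0552. At +2 it was higher than in ML in both HL (8.89, 12.1 and 8.72 FPKM) and LL (9.79, 9.85 and 8.97), by 0.71 (SE 0.120, adjusted p 1.03e-05) and 0.68 (SE 0.120, adjusted p 2.02e-05).

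*CLPX1*, the ClpX chaperone that in plants partners the mitochondrial peptidase, showed the same direction on a larger scale. At +2 it was low in ML, at 1.24, 1.32 and 1.39 FPKM, and stood at 9.11, 8.29 and 7.16 in HL and 7.40, 8.43 and 6.92 in LL. The increases over ML were 1.98 in HL (SE 0.0874, adjusted p 1.50e-18; a ratio of means of 6.22) and 1.89 in LL (SE 0.0874, adjusted p 2.38e-18; a ratio of 5.77). HL and LL at +2 overlapped. At −2 the populations had means of 31.8 ± 2.63 FPKM in LL, 30.3 ± 2.16 in ML and 33.9 ± 1.85 in HL (SD, n = 3), and none of the differences passed the adjusted p.

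*CLPD1*, a further HSP100 chaperone, decreased across dawn where *CLPC1* increased in ML (1.33). In ML it was at 28.0, 23.9 and 26.8 FPKM at −2, 0.447, 0.781 and 0.718 at +2, and 46.8, 43.8 and 52.2 at +10. At −10 it was at 74.2, 80.0 and 75.4 FPKM in LL, above ML (37.4, 43.6 and 51.8) and HL (37.3, 35.2 and 33.4), and HL was lower than LL by −1.09 (SE 0.134, adjusted p 5.07e-08). LL was above ML at −10 by 0.79 (SE 0.134, adjusted p 1.72e-05), under the fold threshold.

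The ClpS adaptors hand proteins to ClpC. *CLPS1* was at 205, 186 and 200 FPKM in ML at +2 and at 288, 252 and 270 in LL, higher by 0.45 (SE 0.0939, adjusted p 0.000166), while the Clp core was lower there. At +10 *CLPS1* was higher in HL (50.1, 43.3 and 47.1 FPKM) than in ML (28.4, 28.5 and 29.1), by 0.69 (adjusted p 7.38e-07). *CLPS2* had a narrow morning peak, at 60.9, 52.4 and 52.9 FPKM in ML, 46.6, 53.4 and 49.3 in HL and 27.6, 36.2 and 16.9 in LL at +2, and it was listed at 0 in all 3 LL libraries at −10.

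The *CLPS2* decrease in LL at +2 was −1.08 (SE 0.326, adjusted p 0.00755). It missed the threshold without ML replicate 1, 2 or 3 at +2 (−1.01, −1.11 and −1.11, adjusted p 0.0294, 0.0166 and 0.0181) and without LL replicate 1 or 3 (−1.13 and −0.79, adjusted p 0.0155 and 0.0764). At +6 *CLPS2* was at 23.1, 23.9 and 27.7 FPKM in HL and 8.13, 10.4 and 8.76 in LL, an increase of 1.36 (SE 0.326, adjusted p 0.00184), which missed the threshold without LL replicate 1 (1.30, adjusted p 0.0108) or HL replicate 3 (1.29, adjusted p 0.0115). The ML libraries at +6 (13.4, 19.2 and 8.55) overlapped those of LL. *CLPT3*, an accessory subunit of the core and the least abundant Clp partner at 12.3 FPKM on average, changed little, between 9.25 and 17.8 FPKM in its group means.

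The ClpB disaggregase genes took opposite directions across dawn. *CLPB3* was the most abundant, 26.7 FPKM on average, and had no large rhythm: its group means lay between 18.3 FPKM (LL at +6) and 36.3 (HL at −10). It was lower in LL than in ML at +6 (−0.66, SE 0.109, adjusted p 1.24e-05) and higher in HL than in ML at −10 (0.50, SE 0.109, adjusted p 0.00134), but not by the adjusted p without ML replicate 3 (0.40, adjusted p 0.0284). *CLPB1* was low at +2, at 0.213, 0.223 and 0.230 FPKM in ML, and at 15.1, 17.4 and 13.2 at −10, whereas *CLPB5* and *CLPB4* increased across dawn by 2.81 and 1.96 in ML. *CLPB2* was the least abundant, 0.581 FPKM on average.

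*CLPB5* had its peak at +2, at 40.4, 39.1 and 43.9 FPKM in ML, 29.7, 29.7 and 32.4 in HL and 21.7, 22.6 and 22.6 in LL, with no overlap. At that time it was lower in LL by −0.85 (SE 0.139, adjusted p 5.17e-06). At +10 it was at 5.57, 5.36 and 4.98 FPKM in LL against 2.13, 1.75 and 2.399 in ML, an increase of 1.03 (SE 0.139, adjusted p 3.05e-07), which was 0.95 without ML replicate 2 (adjusted p 9.11e-06). The part of the lower division markers of LL at +10 in this difference was not tested. At −10 *CLPB5* was lower in HL (1.53, 2.15 and 2.16 FPKM) than in LL (6.55, 6.67 and 4.72), by −1.24 (SE 0.139, adjusted p 9.66e-09).

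**Figure D5:**
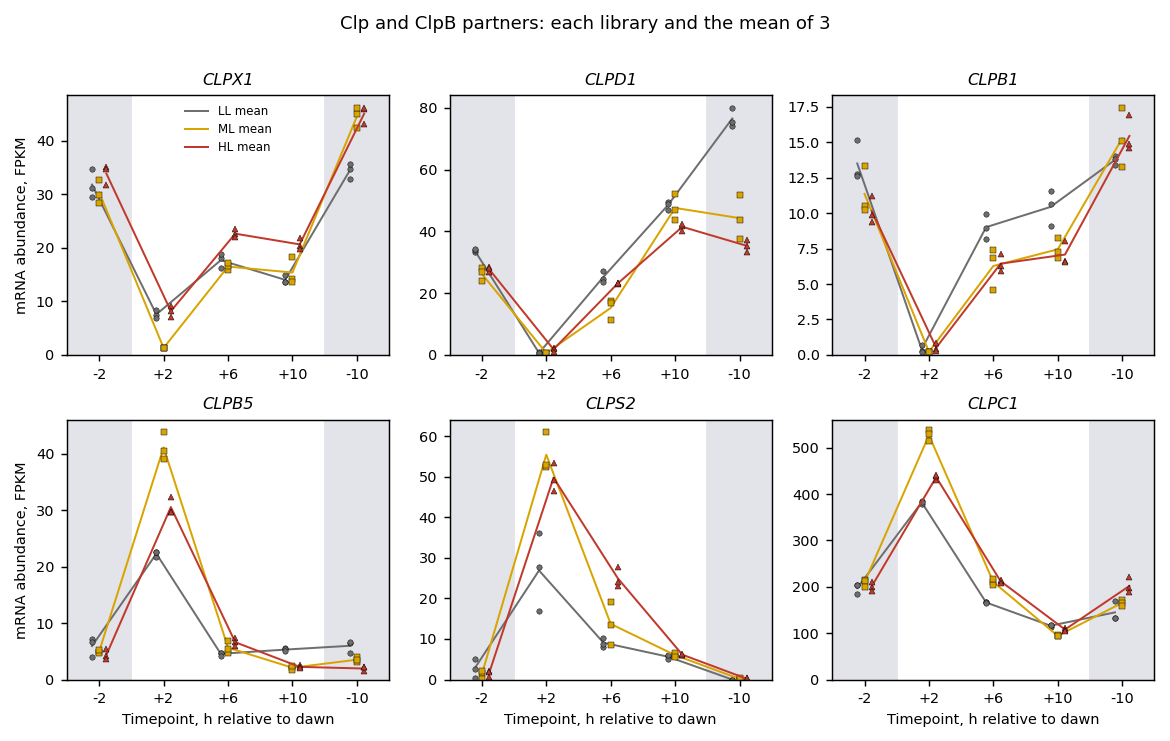
FPKM of the chaperones *CLPX1*, *CLPD1* and *CLPC1*, the adaptor *CLPS2* and the disaggregases *CLPB1* and *CLPB5* (vertical axes) in every library by timepoint in hours relative to dawn, with −10 after +10 and darkness in grey. Points are single libraries and lines join the means of 3. At +2 *CLPX1* is at 1.32 FPKM on average in ML and at 7.58 in LL and 8.18 in HL.

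The FtsH-like import ATPases lack protease activity in plants, where they form part of the import motor. All 5 increased across dawn in ML, by 1.39 to 1.90, and all 5 peaked at +2. *FTSHI6* was the most abundant, 32.6 FPKM on average, and at +2 it was at 88.1, 85.9 and 85.1 FPKM in ML, above all libraries of LL (59.3, 55.6 and 58.0) and HL (52.9, 53.9 and 56.5). *FTSHI1*, *FTSHI2*, *FTSHI4* and *FTSHI6* correlated with each other at 0.934 to 0.988 over the 45 libraries. At +2 all 5 were lower in LL than in ML by the adjusted p, and these 4 were also lower in HL, by −0.66 to −0.56.

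*FTSHI3*, whose import role is annotated as putative, stood apart from the others, with correlations of 0.334 to 0.574. At +2 it was at 24.3, 21.8 and 24.7 FPKM in HL, 20.5, 20.4 and 21.2 in ML and 14.1, 14.4 and 12.1 in LL. At +6 the libraries were at 10.3, 9.82 and 10.3 FPKM in HL, 8.46, 8.30 and 8.47 in ML and 4.13, 3.98 and 4.06 in LL, with no overlap. HL was above LL at +6 by 1.14 (SE 0.109, adjusted p 4.38e-10), and LL was below ML by −0.90 (SE 0.109, adjusted p 7.08e-08).

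The trehalose enzymes fell outside this morning pattern. None of the 4 increased across dawn in any population. *TSPP1*, the most abundant of them at 29.1 FPKM on average, was highest at −2, with 35.6, 37.1 and 37.1 FPKM in ML. *TSPS1*, at 1.87 FPKM on average, decreased across dawn in ML by −1.79 (SE 0.102, adjusted p 1.35e-17). No light difference of the 4 passed both thresholds.

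Genes of the same or related processes outside the group were also counted. A list of 26 genes held PSII assembly and repair factors and other thylakoid genes, such as the protein kinase *STT7* and the phosphatases *PPH1* and *PBCP1*. Its 130 tests over the timepoints gave 2 increases and 0 decreases in HL relative to ML, and 2 increases and 2 decreases in LL. These are 1.54% and 0% of the tests in HL and 1.54% each in LL, below the shares of all genes (2.03% and 0.622% in HL, 2.86% and 1.97% in LL). In HL the increases were those of *ALB3A*, a thylakoid protein insertase (1.49, SE 0.147, adjusted p 2.55e-09), and of *LPA1*, which in *Arabidopsis* assists PSII assembly (1.25, SE 0.152, adjusted p 2.31e-07), both at −10. In LL *HHL1*, named in *Arabidopsis* for hypersensitivity to high light, increased at +10 (1.37, adjusted p 2.98e-09) and at −10 (1.15, adjusted p 1.16e-07, but 0.89 without ML replicate 3, under the fold threshold), and *SRRP1* and *VIPP2* decreased at +6 (−1.14 and −1.29). By the adjusted p alone the list had 9 higher and 19 lower tests in HL, and 27 higher and 17 lower in LL. As shares these were 6.92% and 14.6% in HL, against 8.53% and 6.1% of all genes, and 20.8% and 13.1% in LL, against 12.5% and 11.1%. These sums hide opposite directions at single timepoints. In LL 0% were higher and 38.5% lower at +6 (all genes 11.0% and 9.85%), and 46.2% higher and 0% lower at +10 (all genes 14.7% and 16.2%). In HL 0% were higher and 34.6% lower at +6 (all genes 8.46% and 4.99%), and 26.9% higher and 11.5% lower at −10 (all genes 5.07% and 1.84%).

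A list of 24 chaperone and stress genes was drawn up for the chloroplast. It also held the heat shock transcription factors *HSF1* and *HSF2*, and the descriptions of many of its genes give no compartment. Of the 24, 20 were tested, and their 100 tests gave 4 increases and 0 decreases in HL relative to ML, and 5 increases and 4 decreases in LL. The shares, 4% and 0% in HL and 5% and 4% in LL, compare with 2.03% and 0.622%, and with 2.86% and 1.97%, of all genes. At +2, 14 of the 20 were lower in HL and 14 in LL by the adjusted p alone, 70.0% each, against 12.5% and 15.1% of all genes, with medians of −0.53 and −0.58; 0 were higher in HL and 1 in LL. The chaperonin gene *CPN10* was higher than in ML at −10 by 1.70 in HL (adjusted p 8.27e-05) and by 1.17 in LL (adjusted p 0.00214). Without ML replicate 3 these were 1.94 and 1.41. *HSP70B*, the chloroplast HSP70 that works with ClpB and assists PSII repair, was higher in HL than in ML at −10 by 1.04 (SE 0.0985, adjusted p 9.74e-10), or 0.99 without ML replicate 3, under the fold threshold. At +2 it was lower in HL (−0.37, SE 0.0985, adjusted p 0.00266) and in LL (−0.60, adjusted p 6.35e-06). *HSP90C* was lower in LL than in ML at +2 by −1.20 (SE 0.106, adjusted p 2.09e-11), when *CLPC1* and the Clp core were lower too. A list of 8 other organelle genes, 7 of them proteases, gave 2 increases in HL and 1 in LL in 40 tests (5% and 2.5%), all at +2. The mitochondrial *LON1* in HL (1.31, SE 0.114, adjusted p 3.22e-11) was the only increase of a protease. The other two were those of *ATG8*, an autophagy protein that is not a protease, in HL (1.20, adjusted p 1.51e-10) and in LL (1.99, adjusted p 4.22e-16), at the timepoint at which *CLPX1* increased in both.

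The change across dawn was compared between populations by interaction contrasts, in which 2 members differed in HL from ML and 4 in LL from ML, against 5.17% and 6.87% of all tested genes. For *CLPX1* the decrease across dawn was −3.76 in ML but −1.93 in HL and −1.94 in LL. *DEG1A* rose across dawn in HL (1.05) and had a value of −0.08 in ML, and *DEG1C* rose in LL (1.99) and had a value of 0.33 in ML. *CLPB5* and *CLPS2* rose less in LL (1.78 and 3.07) than in ML (2.81 and 4.72).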

How the data were processed

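Poly(A) RNA was sequenced by the authors as 50 nt reads, mapped to the version 6.1 genome assembly and converted to FPKM; their processing notes list STAR 2.4.0j and Cuffdiff 2.0.2. The deposited FPKM of each library were used, and the deposited means over replicates were not. No counts were used, so depth is an estimate from the spacing of low FPKM values, in which 57.1% of 19815 values lay within 0.1 of a whole step. Columns of other samples numbered 0.

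FPKM + 1 was log2-transformed (pseudocount 1), which understates changes of low genes. Genes at 1 FPKM or more in at least 3 libraries (14602 of 17609) were fitted with limma 3.58.1 in R 4.3.3 as 15 groups with 30 residual degrees of freedom, with empirical Bayes moderation and trend. Adjusted p-values (Benjamini-Hochberg) cover all tested genes within a contrast. On simulated data of the HL and ML contrast at +2 (14602 genes), 98 of 100 changes of 1.5 and 99 of 100 changes of 2 on the log2 scale were recovered, with 0 false calls. The changed genes were drawn only from those with a mean log2(FPKM + 1) above 1.5. Below 3 they were given increases only. The simulated libraries had no time course and no difference in depth. The recovery therefore does not cover members of low abundance, such as *CLPB2*. Settings tried instead were another pseudocount, filter, scaling, threshold, model or block, and fewer libraries.

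Members and gene lists were chosen with earlier results of these data known. Genes named with values were those past both thresholds in a light contrast, a role set (*FTSH1*, *FTSH2*, *DEG1A*, *DEG1B*, *DEG1C*, *DEG5*, *DEG8*, *TEF30*, *CLPB3*, *CLPC1*, *CLPS1*, *EGY1*), the most and least abundant member of each role, and the largest changes across dawn in ML. *FTSH3*, *FTSH4*, *CLPP2*, *CLPB1*, *DEG4*, *DEG6*, *CLPB4* and the genes outside the group were named after their values were seen.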

Additional observations from a re-analysis of the deposited data

Results flagged for a closer look

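The 6 interaction contrasts, in which the change from −2 to +2 of one population is set against that of ML, that passed both thresholds belong to 5 genes (limma, log2 scale). Both populations were set against the same ML libraries. *CLPX1* differed by 1.83 in HL (SE 0.124, adjusted p 4.70e-13) and by 1.82 in LL (SE 0.124, adjusted p 2.20e-13), its decrease across dawn being smaller than in ML in both. *DEG1A* differed by 1.12 in HL (SE 0.233, adjusted p 0.000410), and *DEG1C* by 1.66 in LL (SE 0.287, adjusted p 3.56e-05), or 1.51 without LL replicate 1 at −2.

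*CLPB5* differed by −1.03 in LL (SE 0.197, adjusted p 0.000128). Leaving out ML replicate 2 at −2, ML replicate 3 at +2, LL replicate 2 at −2 or LL replicate 3 at −2 brought it under the fold threshold, to −0.999, −0.988, −0.90 and −0.94. *CLPS2* differed by −1.65 in LL (SE 0.462, adjusted p 0.00654). It missed the adjusted p without ML replicate 3 at −2 (−1.20), ML replicate 1, 2 or 3 at +2 (−1.58, −1.69 and −1.68), LL replicate 1 or 3 at −2 (−1.17 and −1.57) or LL replicate 1 or 3 at +2 (−1.70 and −1.36), with adjusted p from 0.0105 to 0.0389.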

How the results depend on the processing

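Of 990 counts of members under other settings, 971 stayed within 1.5 times the value reported. Most of the 990 came from leaving out each of the 45 libraries in turn for every count, also where the library was not part of the comparison. Such counts could hardly move, so the share that stayed is not a measure of stability. By the adjusted p alone, with no minimum fold, the light contrasts gave 24 higher and 20 lower in HL against ML, 32 and 52 in LL against ML, and 49 and 22 in HL against LL, and across dawn 10 members were lower in LL, 9 lower in ML and 34 higher in HL. A pseudocount of 0.1 gave 5 higher in HL against ML. Among genes with a mean of at least 5 FPKM, 3 members were lower across dawn in LL and 3 in ML. Quantile normalization gave 13 higher across dawn in HL, and 1 (HL) and 2 (LL) interaction contrasts. Shares of all genes under changed scalings or with libraries left out are not given. Leaving out replicates or single libraries gave 1 to 2 interaction contrasts in HL and 2 to 4 in LL, with 2 in LL without ML replicate 3 at +2 or LL replicate 3 at −2, and 3 without LL replicate 1 at −2.

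Of 29 differences named by the thresholds, 19 held under every setting tried and 0 reversed. The calls lost most readily were those of *CLPS2*: with a pseudocount of 0.1 its adjusted p was 0.157 for LL against ML at +2, 0.0995 for HL against LL at +6 and 0.0660 for the interaction, which was −0.87 (adjusted p 0.239) without replicate 3. *DEG1C* at −2 without replicate 1 gave −1.02 for LL against ML (adjusted p 0.0162) and 0.94 for HL against LL (adjusted p 0.0368). *FTSH2* in LL at −10 was 0.98 with median scaling.

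Replicate numbers were not used to pair the libraries in the main model. Deviations of same-numbered libraries of one timepoint correlated at a median of 0.0412, with 12 of 45 pairs over 0.1. For other numbers these were −0.0222 and 5 of 90, so same-numbered libraries shared slightly more. The paper describes cultures followed through each experiment, so libraries of one population with the same number may come from 1 culture. Across timepoints 16 of 90 such pairs were over 0.1, against 13 of 180 with other numbers. With that culture as a random effect every count of members was the one reported, 38 with a time of day difference in each population included. The fitted correlation within a culture was −0.00241, a single value over all genes. This fit was therefore nearly the main one and could hardly give other counts. With the replicate number as a block the counts were those reported, 3 higher and 0 lower in HL against ML, 5 and 5 in LL against ML, and 6 and 4 in HL against LL. Depth limits the LL values at −2 and those of members near 1 FPKM.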
